A study of Homo sapiens with 6 samples.

Results

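The surface molecules by which natural killer (NK) cells and T cells recognize or spare a tumor cell were followed in H2087-LCC cells through 10 genes, namely MICA, MICB, ULBP1, ULBP2, ULBP3, PVR, NCR3LG1, ICAM1, CD274 and CD276. They were chosen by gene symbol, and all 10 were found among the 21293 genes of the table. H2087-LCC is a latency competent population selected from the human stage I lung adenocarcinoma (LUAD) line H2087, so the data describe a single cell population grown without immune cells. RNA-seq libraries were made from cells treated with the TGFβ receptor inhibitor SB505124 (SB) for 3 days, with TGFβ for 3 days or with TGFβ for 7 days, with 2 libraries in each of the 3 groups. The SB libraries are the reference with TGFβ signaling blocked, and no SB library at 7 days was analysed here. A longer exposure to TGFβ and a longer time in culture therefore cannot be told apart. This holds for 7 days against SB and for 7 against 3 days of TGFβ. The study calls the replicates of this experiment technical, and p-values then measure only the spread between these libraries.

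NK cells weigh activating against inhibitory signals from each cell they touch. MICA, MICB and the ULBP proteins are relatives of MHC class I that appear on stressed or transformed cells and are bound by the activating receptor NKG2D. PVR, also called CD155, is bound by the activating receptor DNAM-1 and by the inhibitory receptors TIGIT and CD96. NCR3LG1 encodes B7-H6, the ligand of the activating receptor NKp30, and ICAM1 is the adhesion molecule that the integrin LFA-1 holds at the contact between killer and target. CD274 encodes PD-L1, which restrains T cells through PD-1, and CD276 encodes B7-H3, a B7 family checkpoint molecule that many carcinomas express.

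The libraries were deep enough for every member. Values were normalized counts, which are read counts that the authors divided by a library size factor, and they summed to between 34306283 and 36340734 per library. The steps between the low values put the worth of 1 read at 0.896 to 1.098 normalized counts, so that an estimated 32000000 to 40000000 reads were assigned in each library. Fold changes are given on the scale of log2(normalized count + 1), with standard errors (SE) and Benjamini-Hochberg adjusted p-values from limma over the 14395 genes tested, and a change is named only where the adjusted p was under 0.05. All 8 epithelial and LUAD marker genes averaged 10 or more normalized counts over the 6 libraries, although the surfactant gene SFTPB went from 1104 and 8273 in SB to 19 to 24 in the TGFβ libraries and NAPSA from 99 and 234 to 5 to 9. Their levels were not steady otherwise. NKX2-1 was at 2784 and 2908 in SB, 712 and 748 at 3 days and 853 and 857 at 7 days. EPCAM was at 10180 and 9106, then 6610 and 5994, then 2988 and 3277. KRT7 was higher with TGFβ, at 5860 and 6183, then 15440 and 18905, then 13979 and 11230. Of the 10 NK cell and lymphocyte markers in the table none reached a mean of 10, their summed level was 3 to 14 normalized counts per library, and NCR1 was at 0 throughout. Of 4 myeloid, 3 endothelial and 4 fibroblast markers, 2, 1 and 2 reached it. The myeloid sum was 4846 to 5150 normalized counts in SB, 5004 to 5712 at 3 days and 5599 to 6129 at 7 days. It was nearly all CD68 and CSF1R, with CSF1R at 34 and 31 in SB, 626 and 677 at 3 days and 1114 and 1032 at 7 days, while CD14 and LYZ were at 0 to 8. The endothelial sum was 56 to 78 over all libraries. The fibroblast sum was 210 to 258, 283 to 353 and 465 to 595, mostly COL1A1, with LUM at 0 and DCN at 0 or 1. The part of these markers in the results was not tested.

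**Figure D1:**
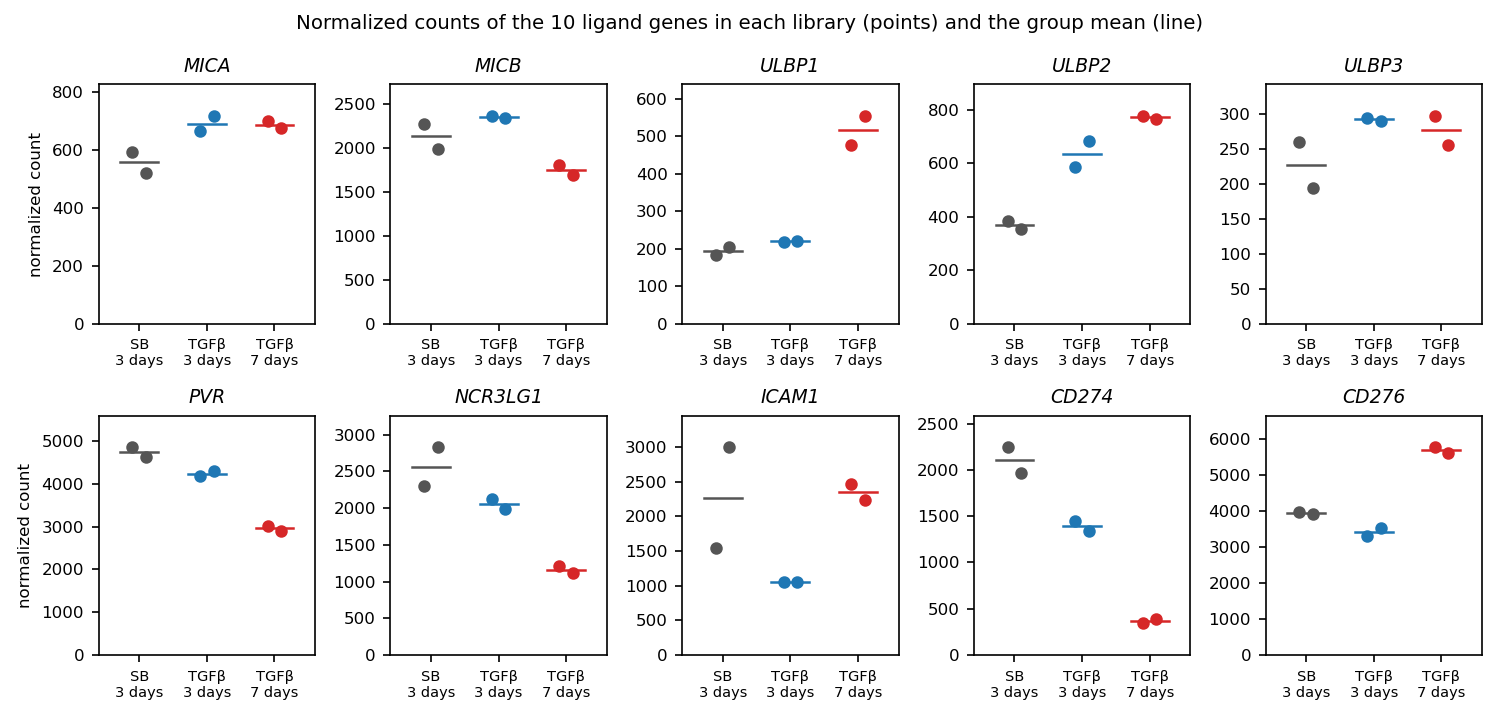
Normalized counts (vertical axis, starting at 0) of the 10 ligand genes in the SB group and the groups of 3 and 7 days of TGFβ; points are the 2 libraries of a group and lines their mean. ULBP1 and ULBP2 end above SB and CD274, NCR3LG1 and PVR below it, while the SB libraries of ICAM1 lie at 1545 and 3000.

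Among the 10 genes, the ligands moved in different directions. After 3 days of TGFβ, ULBP2 rose and ICAM1 and CD274 fell against SB, which makes 3 of 10 members, or 30%, past the threshold, near the 29% of all genes tested (14.9% higher and 14% lower). After 7 days, 8 of 10 had changed against SB, with MICA, ULBP1, ULBP2 and CD276 higher and MICB, PVR, NCR3LG1 and CD274 lower, beside 54.5% of all genes (27.7% higher and 26.9% lower). Between 3 and 7 days of TGFβ, 7 of 10 changed, with ULBP1, ICAM1 and CD276 higher and MICB, PVR, NCR3LG1 and CD274 lower, beside 33.2% of all genes (17% higher and 16.2% lower). The median absolute log2 fold change of the members was 0.31, 0.60 and 0.63 in these comparisons, and that of all genes tested was 0.24, 0.41 and 0.27. Both comparisons with SB share the SB libraries, and both comparisons with 3 days share the 3-day libraries, so they are not independent of each other.

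**Figure D2:**
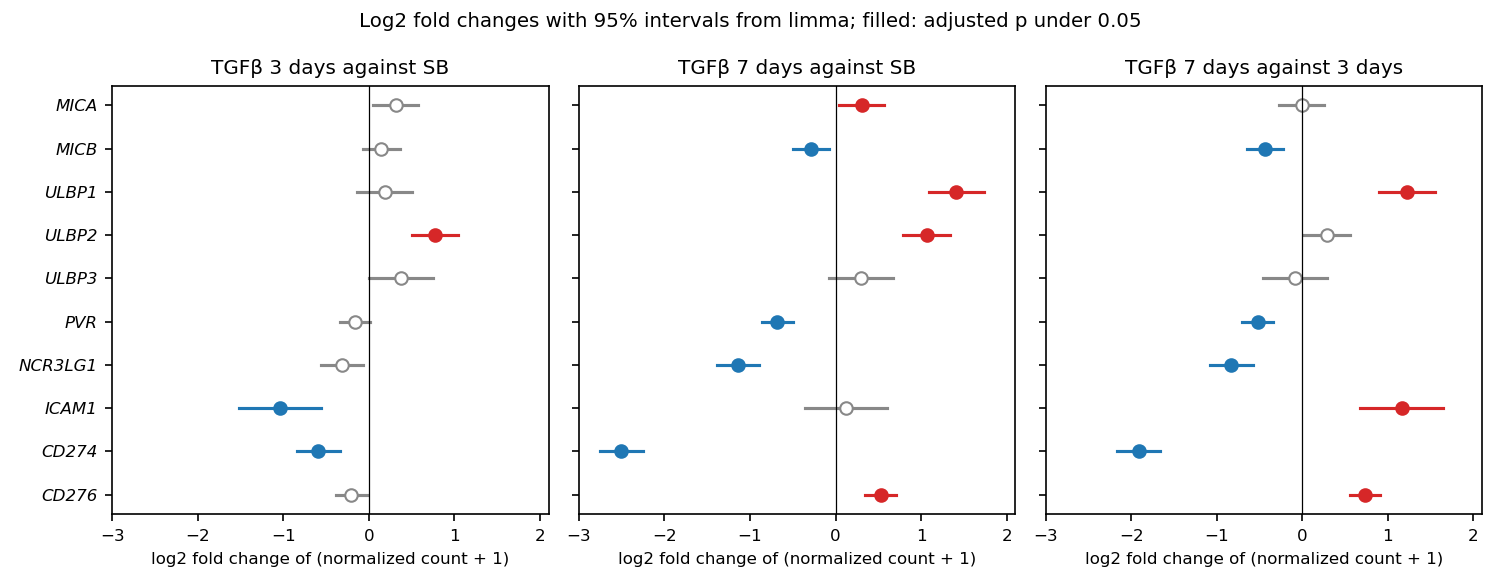
Log2 fold change of the normalized count + 1 (horizontal axis) of each member with its 95% interval from limma, for each TGFβ group compared with SB and for the TGFβ groups compared with each other; filled points have an adjusted p under 0.05 (red higher, blue lower). CD274 lies farthest to the left at 7 days, at -2.502 against SB, and ULBP1 farthest to the right, at 1.41.

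MICA and MICB, the paired NKG2D ligands of the MHC region, are at chr6:31367561-31383092 and chr6:31462658-31478901 (GRCh37, plus strand). Their promoters are shown because the genes resemble each other in sequence yet ended on opposite sides of SB. The windows run from 250 to 51 bases before the RefSeq start site and were located on GRCh37 at chr6:31371122-31371321 and chr6:31465672-31465871 (plus strand). Both windows lie inside the gene spans given above, which came from GENCODE and start upstream of the RefSeq start sites. Over 204 aligned columns, 173 were identical (84.8%). Capitals mark the match to GAANNTTC, a letter pattern of heat shock factor sites searched on both strands, which lies 135 bases before the start of MICA and 139 before that of MICB; 4.60% of 35116 RefSeq promoters hold a match. A match describes the letters and does not show a bound site.
MICA: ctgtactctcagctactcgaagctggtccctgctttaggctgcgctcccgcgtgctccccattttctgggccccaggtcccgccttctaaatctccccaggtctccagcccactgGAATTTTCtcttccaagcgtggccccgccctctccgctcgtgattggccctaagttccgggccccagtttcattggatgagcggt
MICB: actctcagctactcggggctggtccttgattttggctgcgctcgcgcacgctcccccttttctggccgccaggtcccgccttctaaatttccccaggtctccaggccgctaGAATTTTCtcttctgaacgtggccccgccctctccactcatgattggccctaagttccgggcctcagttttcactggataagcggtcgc

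MICA was listed at 593 and 519 normalized counts in SB, at 663 and 717 after 3 days of TGFβ and at 697 and 674 after 7 days. All 4 TGFβ libraries lay above both SB libraries. The log2 fold change was 0.31 at 3 days (SE 0.12, adjusted p = 0.0699 by limma) and 0.30 at 7 days (SE 0.12, adjusted p = 0.0479), so only the latter passed the threshold. That call was lost under 11 of 16 alternative settings, with adjusted p-values between 0.0262 and 0.195. Between 3 and 7 days the difference was -0.01 (95% interval -0.27 to 0.25). In these bulk libraries a change in the number of cells that express a gene and a change in RNA per cell cannot be told apart, for this or any other member.

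MICB had more counts, at 2276 and 1992 in SB, 2367 and 2343 at 3 days and 1802 and 1687 at 7 days. The 7-day libraries were the lowest of the 6, whereas the 3-day libraries were slightly above SB. MICB was 0.15 higher on the log2 scale at 3 days than in SB (95% interval -0.07 to 0.36, adjusted p = 0.294 by limma). It then fell, by 0.43 between 3 and 7 days (SE 0.10, adjusted p = 0.00605) and by 0.29 between SB and 7 days (SE 0.10, adjusted p = 0.0256). The call between 7 days and SB was lost under 5 of 16 alternatives, including the fit without SB replicate 1, where the log2 fold change was -0.19 (adjusted p = 0.139). The call between 3 and 7 days was lost without TGFβ 7 days replicate 2 (adjusted p = 0.0707) and when genes of low mean were kept in the fit (adjusted p = 0.0608).

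The ULBP genes, a cluster of GPI-anchored or transmembrane NKG2D ligands on the long arm of chromosome 6, included the members that rose most. ULBP2 (chr6:150263150-150270371, plus strand) was at 383 and 355 normalized counts in SB, 586 and 682 at 3 days, and 777 and 766 at 7 days. The groups did not overlap, and their order was SB, 3 days, 7 days. Its level was 1.71-fold that of SB at 3 days (log2 0.78, SE 0.12, adjusted p = 0.000588 by limma) and 2.09-fold at 7 days (log2 1.06, adjusted p = 2.32e-05), and both calls held under every alternative tried. The step from 3 to 7 days was 0.29 (95% interval 0.02 to 0.56) and did not pass after adjustment (adjusted p = 0.0959).

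ULBP1 (chr6:150285079-150294851, plus strand) followed a later course. It was at 183 and 203 normalized counts in SB, 219 and 220 at 3 days, and 476 and 555 at 7 days. The 3-day and SB libraries lay close together and the 7-day libraries stood apart. The log2 fold change against SB was 0.19 at 3 days (95% interval -0.14 to 0.51, adjusted p = 0.376 by limma) and 1.41 at 7 days (SE 0.15, adjusted p = 9.74e-06), a 2.66-fold difference. Between 3 and 7 days ULBP1 rose by 1.22 (SE 0.15, adjusted p = 0.000151). Both 7-day calls held under all 16 alternatives.

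ULBP3 (chr6:150382189-150390257, minus strand) was at 260 and 193 normalized counts in SB, 294 and 290 at 3 days and 297 and 255 at 7 days, and the 7-day and SB libraries overlapped. Its log2 fold change was 0.38 at 3 days (95% interval 0.01 to 0.75, adjusted p = 0.118 by limma) and 0.30 at 7 days (95% interval -0.08 to 0.67, adjusted p = 0.163). The SB libraries differed by 3.08 times the SD of read counting. Without SB replicate 1 the log2 fold changes were 0.59 and 0.51 (adjusted p = 0.0269 and 0.0303).

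Among the transcripts of the 5 NKG2D ligand members, the shares of MICB, ULBP2 and ULBP1 differed between the groups. The other NKG2D ligand genes are not in this sum, among them RAET1E, which had 991 and 878 normalized counts in SB and 629 and 612 at 7 days. Per kb of the canonical transcript, the 5 genes summed to 1802 and 1595 normalized counts in SB, 2065 and 2166 at 3 days and 2080 and 2019 at 7 days. MICB made up 52.3% and 51.7% of this sum in SB, 47.4% and 44.8% at 3 days and 35.9% and 34.6% at 7 days. ULBP2 took 15.9% and 16.7%, then 21.3% and 23.6%, then 27.98% and 28.42%. The share of ULBP1 was 3.16% to 3.96% in the 4 libraries of SB and 3 days and 7.13% and 8.56% at 7 days, and that of MICA stayed between 23.4% and 24.5%. With 2 libraries against 2, a two-sided exact permutation test of such a sum or share cannot give a p below 0.333.

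**Figure D3:**
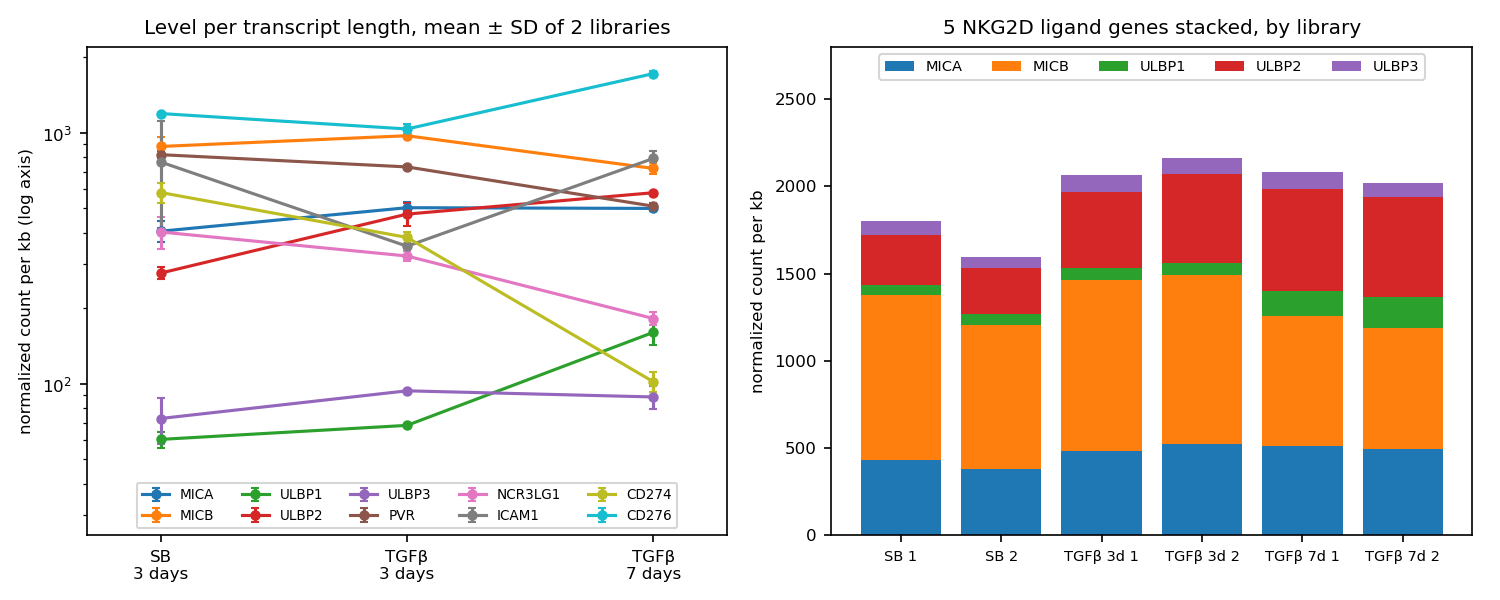
Left, normalized counts per kb of canonical transcript (log axis) of the 10 members as mean ± SD of 2 libraries in each group; right, the 5 NKG2D ligand genes stacked in each library (linear axis from 0). CD276 is the highest member in every group, CD274 goes from rank 5 in SB to rank 9 at 7 days, and the MICB part of the stack shrinks as the ULBP2 part grows.

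Reads from these families can be hard to assign. Of all 50-base windows of the canonical transcript, 32.6% were shared with another gene for ULBP2, 29.7% with RAET1L, which itself had 4 to 15 normalized counts. The shared part was 12.1% for ULBP3, 8.13% for ULBP1, 2.96% for MICB and 2.498% for MICA. Uniquely mapped reads were counted, so the level of ULBP2 is less certain than those of MICA and MICB.

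Of the 3 other NKG2D ligand genes, all were tested. RAET1G rose, from 63 and 50 normalized counts in SB to 86 and 87 at 3 days and 202 and 162 at 7 days (log2 fold change against SB of 0.61, adjusted p = 0.0466, and 1.67, adjusted p = 4.24e-05, by limma). RAET1E fell, from 991 and 878 in SB to 663 and 625 at 3 days and 629 and 612 at 7 days. Its log2 fold change against SB was -0.53 at 3 days (adjusted p = 0.00428 by limma) and -0.59 at 7 days (adjusted p = 0.00102). RAET1L did not pass. The list thus held 1 gene higher and 1 lower in each comparison with SB, and 1 higher and 0 lower at 7 against 3 days. Of all genes, 14.9% were higher and 14% lower at 3 days, 27.7% and 26.9% at 7 days, and 17% and 16.2% at 7 against 3 days. Among 7 proteases and redox enzymes known to release NKG2D ligands from the surface, 4 were higher at 3 days and 6 at 7 days than in SB. None was lower. Of all genes tested, 14.9% were higher at 3 days and 27.7% at 7 days. The membrane protease MMP14 went from 24795 and 21290 to 86804 and 98648 and then to 135615 and 122833 normalized counts, which is 2.01 above SB on the log2 scale after 3 days (adjusted p = 4.48e-08) and 2.49 above it after 7 days (adjusted p = 3.18e-09). The gelatinases were low in SB, with MMP9 at 5 and 7 normalized counts and MMP2 at 2 and 7, and reached 228 and 176 and 38 and 31 at 7 days. Both are among the 4 called higher at 3 days and the 6 called higher at 7 days. Both passed the filter on the mean only through their TGFβ libraries, so their calls carry no weight in these counts. Among 8 regulators of DNA damage and stress responses that act upstream of NKG2D ligands, 1 was higher and 3 lower at 3 days. At 7 days 1 was higher and 5 lower. The shares of all genes were 14.9% higher and 14% lower at 3 days, and 27.7% and 26.9% at 7 days. CHEK2, the DNA damage checkpoint kinase, was at -1.02 against SB on the log2 scale after 7 days (adjusted p = 3.46e-05).

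PVR and NCR3LG1, which feed other activating receptors, were both lower after 7 days of TGFβ. PVR (chr19:45147098-45169430, plus strand) was at 4858 and 4634 normalized counts in SB, 4177 and 4307 at 3 days and 3017 and 2899 at 7 days. The groups were in that order with no overlap. The difference at 3 days was -0.16 on the log2 scale (95% interval -0.34 to 0.02, adjusted p = 0.167 by limma). At 7 days PVR had fallen by 0.68 against SB (SE 0.08, adjusted p = 3.13e-05) and by 0.52 against 3 days (SE 0.08, adjusted p = 0.000889). Its annotated exons overlap those of an unnamed gene on the same strand over 34.5% of the 50-base windows, and how the authors' annotation treats that gene is not given in the sources used here.

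NCR3LG1 (chr11:17373347-17398888, plus strand) was at 2302 and 2829 normalized counts in SB, 2122 and 1993 at 3 days and 1209 and 1110 at 7 days. The groups again did not overlap, although the SB libraries differed by 7.16 times the SD of read counting. Against SB, the log2 fold change was -0.31 at 3 days (SE 0.11, adjusted p = 0.0574 by limma), which passed with libraries scaled to equal totals (adjusted p = 0.0384) and without SB replicate 1 (adjusted p = 0.0123). At 7 days it was -1.14 (SE 0.11, adjusted p = 6.13e-06), a level 2.20-fold lower, and between 3 and 7 days -0.83 (adjusted p = 0.000329). The 7-day calls of PVR and NCR3LG1 held under all 16 alternatives. None of the 50-base windows of NCR3LG1 was shared with another gene.

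At 7 days none of the tested relatives of PVR was lower than SB. Of 5 other nectin and nectin-like ligands of DNAM-1, TIGIT, CD96 and CRTAM, 3 were higher and 1 lower at 3 days. At 7 days 3 were higher and none lower. The shares of all genes were 14.9% higher and 14% lower at 3 days, and 27.7% and 26.9% at 7 days. NECTIN4, a TIGIT ligand, was at 1 and 2 normalized counts in SB, 45 and 42 at 3 days and 312 and 292 at 7 days, so no precise fold can be given against SB. NECTIN4 is among the 3 called higher than SB at both times. It passed the filter on the mean only through its TGFβ libraries, so its calls against SB carry no weight in these counts. It rose by 2.77 on the log2 scale between 3 and 7 days (SE 0.30, adjusted p = 7.62e-05 by limma). NECTIN2, which like PVR is bound by DNAM-1 and TIGIT, differed from SB by -0.52 on the log2 scale after 3 days (adjusted p = 0.0295) and by -0.04 after 7 (adjusted p = 0.826). Of 6 tested further activating and adhesion ligands, 1 changed at 3 days and 2 at 7 days, beside 29% and 54.5% of all genes. CLEC2B, the ligand of the activating receptor NKp80, fell from 120 and 101 normalized counts in SB to 36 and 30 and then 15 and 16, or -2.75 on the log2 scale after 7 days (adjusted p = 4.95e-06). CD58, the adhesion ligand of CD2, had 1762 and 1824 normalized counts in SB, 1932 and 1758 at 3 days and 3454 and 3746 at 7 days, a rise of 1.004 on the log2 scale against SB (adjusted p = 3.90e-06).

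ICAM1 (chr19:10381769-10397291, plus strand) was low at 3 days of TGFβ and returned by 7 days to the range of SB. Its promoter is shown for the NF-κB site that is well known there. The window lies at chr19:10381546-10381745, from 250 to 51 bases before the start. Capitals mark GGAAATTCC, an NF-κB pattern, 186 bases before the start and TTCNNNGAA, a STAT pattern, 75 bases before it. Of 35116 promoters, 0.322% hold the former and 5.48% the latter; among the 11 promoter windows of the members, 1 and 2 hold them.
ICAM1: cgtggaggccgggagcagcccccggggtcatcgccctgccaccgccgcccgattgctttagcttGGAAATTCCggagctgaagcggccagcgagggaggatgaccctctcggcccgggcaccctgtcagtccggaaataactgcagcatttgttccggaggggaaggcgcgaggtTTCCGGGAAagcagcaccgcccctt

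ICAM1 was at 1545 and 3000 normalized counts in SB, 1050 and 1049 at 3 days and 2465 and 2232 at 7 days. Both 3-day libraries were below every other library, and the 7-day libraries lay between the SB libraries. The log2 fold change was -1.04 at 3 days against SB (SE 0.22, adjusted p = 0.00404 by limma), 0.12 at 7 days against SB (95% interval -0.36 to 0.60, adjusted p = 0.655) and 1.16 at 7 days against 3 days (SE 0.22, adjusted p = 0.00240). The SB pair differed 1.94-fold, 20.6 times the SD of read counting and the 99.1th percentile of the 11389 genes whose mean was 100 or more. The 3-day value was -1.51 without SB replicate 1 (adjusted p = 1.19e-05) and -0.56 without SB replicate 2 (adjusted p = 0.00535). The 7-day value against SB changed sign with the library left out, at -0.35 without SB replicate 1 (adjusted p = 0.0212) and 0.60 without SB replicate 2 (adjusted p = 0.00145). The 3-day call did not hold when genes of low mean were kept (adjusted p = 0.175) or without the trend on mean expression (adjusted p = 0.0678), and the call between 7 and 3 days was lost without the filter (adjusted p = 0.136).

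Other genes separated the SB libraries in the same direction. The 9 NF-κB list genes are factors, inhibitors and the kinase gene IKBKB. All 9 were higher in SB replicate 2 than in replicate 1 (median log2 difference 0.28), and so were all 7 MHC class I genes (median 0.33), beside 6910 of all 14395 genes tested (median -0.0057). The epithelial marker SFTPB differed between the SB libraries in that direction too, at 1104 and 8273. The part of these genes in the ICAM1 values was not tested. Of those 9 NF-κB genes, 4 were lower and none higher than SB at each time, but the 4 were not the same genes. At 3 days they were the inhibitors NFKBIA, NFKBIE and TNFAIP3 and the kinase gene IKBKB. None of the factors NFKB1, NFKB2, RELA, RELB and REL passed at 3 days. At 7 days NFKB1 was among the 4 in place of NFKBIE. Of all genes, 14% were lower at 3 days and 26.9% at 7 days. The inhibitor TNFAIP3 (A20) fell from 2798 and 3001 normalized counts to 1730 and 1695 and then to 968 and 988 (log2 -1.57 at 7 days, adjusted p = 7.47e-08 by limma). The antisense gene ICAM4-AS1 shares 26.3% of the 50-base windows of ICAM1, and the library kit does not mark strand, so reads of the pair cannot be told apart there.

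**Figure D4:**
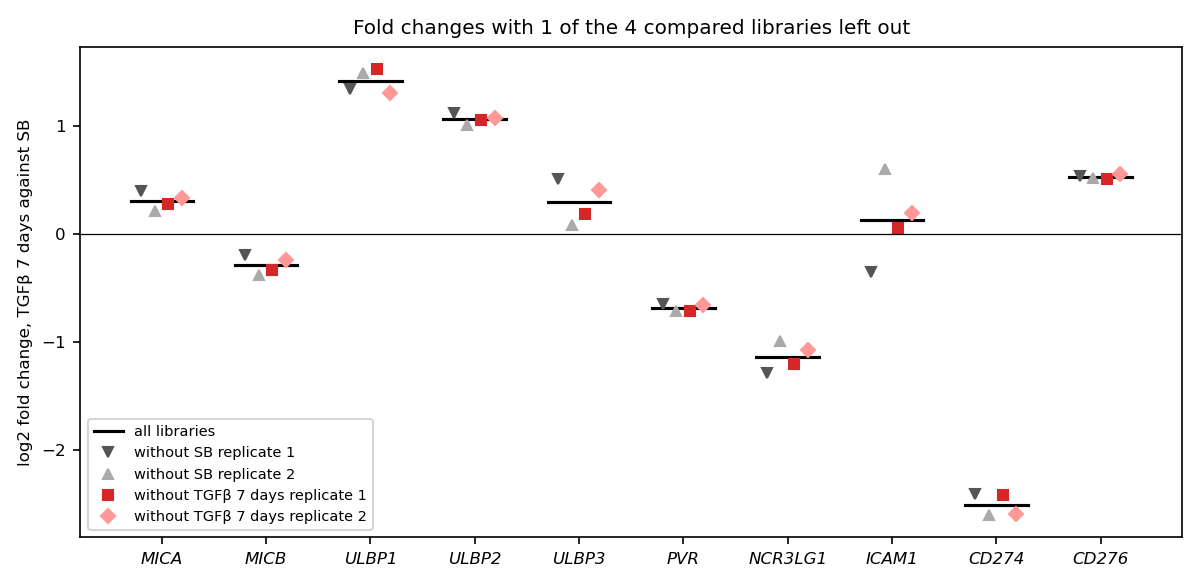
Log2 fold change of each member at 7 days of TGFβ against SB (vertical axis) with all libraries (line) and with 1 of the 4 compared libraries left out (markers). ICAM1 lies on either side of 0 depending on the SB library left out, at -0.35 and 0.60. For every other member the markers stay on the same side of 0 as the line.

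CD274, the gene of PD-L1 (chr9:5450503-5470566, plus strand), had the largest change of the 10 members at 7 days. Its promoter is shown because PD-L1 is a known interferon target. In the window at chr9:5450292-5450491, capitals mark 3 matches to TTTCNNTTT, an interferon regulatory factor (IRF) pattern, at 208, 202 and 146 bases before the start, the first pair overlapping, and 1 match to the STAT pattern TTCNNNGAA at 125 bases. The IRF pattern occurs in 7.61% of 35116 promoters and in no other member window.
CD274: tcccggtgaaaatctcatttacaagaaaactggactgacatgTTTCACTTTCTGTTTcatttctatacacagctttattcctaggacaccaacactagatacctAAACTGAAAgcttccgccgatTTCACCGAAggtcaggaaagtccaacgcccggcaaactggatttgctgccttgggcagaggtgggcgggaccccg

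The gene was at 2246 and 1962 normalized counts in SB, 1444 and 1343 at 3 days and 347 and 394 at 7 days, or 2104 ± 201, 1394 ± 71.4 and 370.5 ± 33.2 (mean ± SD, n = 2). The groups did not overlap and fell in that order. On the log2 scale CD274 fell by 0.59 within 3 days (SE 0.12, adjusted p = 0.00232 by limma) and fell by 2.502 within 7 days (SE 0.12, adjusted p = 1.04e-08), a 5.66-fold lower level, and it fell by 1.91 between 3 and 7 days (adjusted p = 1.63e-06). The 7-day calls held under all 16 alternatives. The 3-day call did not hold when genes of low mean were kept in the fit (adjusted p = 0.0556). No 50-base window of CD274 was shared with another gene.

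CD276 (chr15:73976307-74006855, plus strand) moved the other way at 7 days. It was at 3959 and 3916 normalized counts in SB, 3313 and 3521 at 3 days and 5764 and 5594 at 7 days. The 7-day libraries were the highest and the 3-day libraries the lowest. The log2 fold change was -0.21 at 3 days (95% interval -0.38 to -0.03, adjusted p = 0.0822 by limma), 0.53 at 7 days (SE 0.08, adjusted p = 0.000204) and 0.73 between 3 and 7 days (SE 0.08, adjusted p = 9.28e-05). With equal library totals the 3-day difference passed as well (adjusted p = 0.0279). Per kb of transcript, CD276 was 1.94 and 2.20 times CD274 in SB, 2.53 and 2.89 times at 3 days and 18.3 and 15.7 times at 7 days.

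PDCD1LG2, which encodes the second PD-1 ligand PD-L2 and neighbors CD274 on chromosome 9, was at 91 and 80 normalized counts in SB, 227 and 221 at 3 days and 118 and 143 at 7 days. It was higher than SB at 3 days (log2 1.38, adjusted p = 0.000139 by limma) and at 7 days (log2 0.60, adjusted p = 0.0150), and lower at 7 than at 3 days (log2 -0.78, adjusted p = 0.00733). Of 7 tested checkpoint ligands other than CD274 and CD276, 1 was higher and 2 lower at 3 days, and 2 were higher and none lower at 7 days. The shares of all genes were 14.9% higher and 14% lower at 3 days, and 27.7% and 26.9% at 7 days. LGALS9, the gene of galectin-9, was at 66 and 157 in SB, 29 and 29 at 3 days and 76 and 79 at 7 days (log2 -1.78 after 3 days with adjusted p = 0.00194, and -0.39 after 7 with adjusted p = 0.346), again with the SB pair apart. VSIR, the gene of VISTA, differed from SB by -1.06 on the log2 scale after 3 days (adjusted p = 0.0133) and by -0.24 after 7 (adjusted p = 0.486).

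Of 10 known regulators of CD274, activators and inhibitors together, 2 were higher and 1 lower than SB at 3 days, and 4 were higher and 1 lower at 7 days. These counts are near the shares of all genes tested, 29% and 54.5%. CMTM6, which stabilizes PD-L1 protein at the surface, was at 8047 and 8190 normalized counts in SB and 10866 and 11762 at 7 days (log2 0.48, adjusted p = 0.000560 by limma). IRF1, a transcription factor that relays the interferon signal, differed from SB by -0.29 on the log2 scale after 7 days (adjusted p = 0.0630). IFNGR2, a chain of the interferon-γ receptor, was 1.03 higher than SB after 7 days (adjusted p = 5.13e-06). SOCS1, an inhibitor of that pathway, was listed at 12 and 6 normalized counts in SB, 18 and 20 at 3 days and 3 and 3 at 7 days. It was the regulator called lower at 7 days. Its mean over the 6 libraries was 10.3, so it passed the filter of 10 only through its 3-day libraries. With values this low and a test that depended on the 3-day group, its calls carry no weight here.

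**Figure D5:**
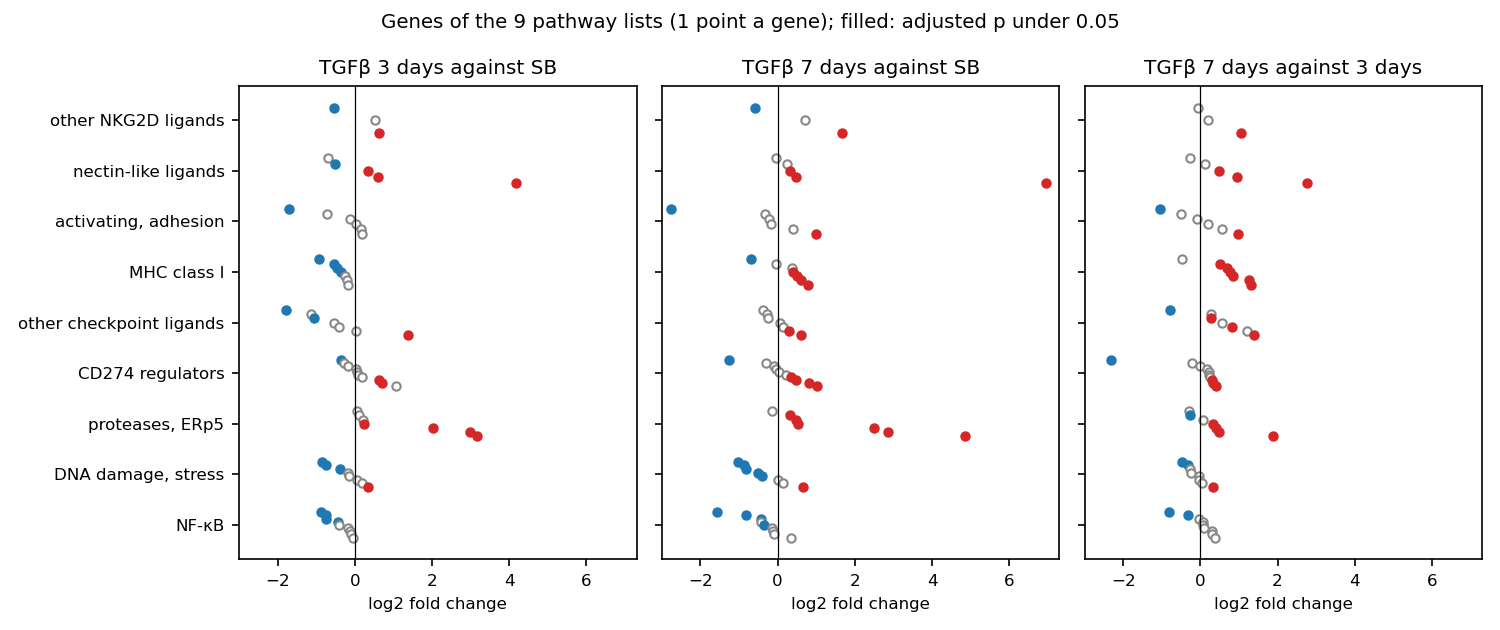
Log2 fold changes (horizontal axis) of the tested genes of 9 pathway lists, 1 point a gene, in the 3 comparisons; filled points have an adjusted p under 0.05 (red higher, blue lower). The MHC class I genes lie at or left of 0 at 3 days against SB and, but for 1 gene, right of 0 at 7 against 3 days.

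MHC class I molecules, which inhibit NK cells and present antigen to T cells, were lower at 3 days in 4 of 7 genes and higher in none. At 7 days, 4 were higher than SB and 1 was lower, and between 3 and 7 days 6 of 7 were higher. Of all genes, 14% were lower than SB at 3 days. At 7 days 27.7% were higher and 26.9% lower than SB, and 17% were higher than at 3 days. HLA-F had 165 and 282 normalized counts in SB, 97 and 129 at 3 days and 316 and 245 at 7 days, and was 1.31 higher on the log2 scale at 7 than at 3 days (adjusted p = 0.00244 by limma). Over all 9 lists, 29, 35 and 30 of 62 tested genes passed at 3 days and at 7 days against SB and at 7 against 3 days. Of all 14395 genes, 4170, 7851 and 4775 passed, or 29%, 54.5% and 33.2%. The list share was above that of all genes at 3 days and at 7 against 3 days, and near it at 7 days against SB. The lists were chosen with earlier results of these data known.

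Per kb of transcript the order of the 10 members differed between groups. In SB it ran from CD276 (1195 ± 9.23 normalized counts per kb, mean ± SD, n = 2) through MICB (883 ± 83.1), PVR (819 ± 27.3), ICAM1 (766 ± 347), CD274 (579 ± 55.3), MICA (406 ± 38.2), NCR3LG1 (403 ± 58.6) and ULBP2 (276 ± 14.8) to ULBP3 (72.8 ± 15.2) and ULBP1 (60.1 ± 4.40). ICAM1 could not be placed among MICB, PVR, CD274, MICA and NCR3LG1 beyond its spread, and neighbors MICB and PVR, MICA and NCR3LG1, and ULBP3 and ULBP1 differed by less than their summed SDs. At 7 days CD276 led at 1724 ± 36.5, followed by ICAM1 (792 ± 55.5), MICB (722 ± 33.7), ULBP2 (578 ± 5.83), PVR (511 ± 14.4), MICA (500 ± 11.9), NCR3LG1 (182 ± 11.0), ULBP1 (161 ± 17.4), CD274 (102 ± 9.15) and ULBP3 (88.7 ± 9.55). There, the pairs ICAM1 and MICB, PVR and MICA, NCR3LG1 and ULBP1, and CD274 and ULBP3 were within their summed SDs. At 3 days the first 3 were CD276 (1037 ± 44.6), MICB (975 ± 7.02) and PVR (732 ± 15.9), and ULBP1 was the lowest at 68.4 ± 0.220.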

How the data were processed

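Per the labels and the study's methods, RNA from H2087-LCC cells was sequenced in 6 libraries as read pairs, quality was checked with FastQC 0.11.5, and the authors mapped reads to hg19 with STAR, assigned unique reads to genes with HTSeq 0.6.1p1 and normalized by library size with DESeq2. The deposited values, recorded here under the unit score, are these normalized counts rounded to whole numbers, so a count model was not used. The annotation release is not given in the sources used here.

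Values were taken as log2(value + 1), and the 14395 of 21293 genes with a mean of at least 10 over the 6 libraries entered a linear model in limma (version 3.58.1, R 4.3.3) with group as the only term, a trend on mean expression and 3 residual degrees of freedom. P-values were adjusted by Benjamini-Hochberg at 0.05 in each of 3 comparisons. The steps were tested on simulated data. The members and the 9 lists (71 genes, 69 in the table, 62 tested) were chosen with earlier results of these data known. All 10 members were named, and from the lists at most 4 genes a list past the threshold with a log2 fold change over 1 in size, plus PDCD1LG2, NECTIN2, CMTM6 and IRF1; 1 more gene that the rule lists by name is not reported here. List genes were matched through older symbols where needed. RAET1E, RAET1L, B2M, the NF-κB genes other than TNFAIP3 and the marker genes with values were named outside this rule, after their values were seen. Gene positions and transcript lengths came from GENCODE on GRCh37 (canonical transcript). Promoters came from RefSeq (GRCh38.p14), matched all 10 members with 11 windows of 200 bases, and were placed on GRCh37 by exact match, which PVR lacked. Of the motifs searched, SMAD (CAGAC), AP-1 (TGANTCA), the NF-κB form GGGNNTTTC, ATF4 (TGATGNAA), E2F (TTTNGCGC) and ZEB (CAGGTG) are not discussed. Counting SDs cover counting error only. Alternatives were pseudocounts of 0.5 and 5, no filter or a mean of at least 50, 3 other scalings, no trend, only the 4 libraries compared, a replicate block and each library left out. Plots used matplotlib 3.10.9 (Python 3.11.15).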

Additional observations from a re-analysis of the deposited data

Results flagged for a closer look

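HLA-B and B2M, the MHC class I heavy chain and the light chain that class I molecules share, were called lower than SB at 3 days of TGFβ and higher than SB at 7 days. HLA-B was at 4607 and 7340 normalized counts in SB, 4111 and 4295 at 3 days and 10448 and 9795 at 7 days, and its 7-day level was 1.27 above that of 3 days on the log2 scale (SE 0.16, adjusted p = 0.000219 by limma). B2M was at 61251 and 73393, 54023 and 49531, and 85149 and 90935, with a difference between 7 and 3 days of 0.77 (SE 0.10, adjusted p = 0.000224). Both were higher in the second SB library than in the first.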

How the results depend on the processing

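Over the 30 fold changes of the members and 16 alternatives each, 446 of 480 values kept their direction and side of the threshold, 22 lost a call, 7 gained one and 5 changed sign. Many of the values could not change sign. The filters, the fit without the trend, the replicate block and the fit of only the 4 libraries leave the fold change itself as it was. So does leaving out a library of the group not compared. ICAM1 at 7 days against SB ranged from -0.35 to 0.60 with 1 library left out, MICA at 7 against 3 days from -0.065 to 0.048 and ULBP3 at 7 against 3 days from -0.19 to 0.024. The upper quartile scaling gave 0.0042 for MICA at 7 against 3 days. Of the 3 members called at 3 days against SB, the count became 1 without the filter on low values, 5 with equal library totals and 3 to 6 with 1 library left out, 6 of them without SB replicate 1. With 1 library left out it was 6 to 9 for 7 days against SB and 6 to 7 for 7 against 3 days, and without the filter 6 and 5. List genes past the threshold at 3 days against SB numbered 13 without the filter, 18 without the trend and 17 to 36 with 1 library left out, against 29; at 7 against 3 days they numbered 5, 19 and 15 to 35, against 30. The cause was not tested.

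Deviations of same-numbered libraries correlated at 0.21 for SB and 3 days, -0.13 for SB and 7 days and -0.65 for 3 and 7 days, over 11389 genes. Same numbers thus did not mark pairs throughout. The value of -0.65 is structure shared by the 3-day and 7-day libraries with the numbers crossed, which the main fit ignored. These libraries cannot be taken as independent. With the replicate block, 3, 7 and 7 members passed, and MICA at 7 days against SB was the call lost (adjusted p = 0.0795). Crossed numbers, a pairing chosen after seeing the data, gave 7 members for 7 days against SB and 8 for 7 against 3 days. In the latter comparison 45 list genes passed, against 30 in the main fit and 35 with only the 4 libraries compared and no block. With 2 libraries a group, the spread of ICAM1 in SB limits its comparisons with SB most.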
